A study of Mus musculus with 2 samples.

Results

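Lysosomal enzymes and membrane proteins were followed as a set of 43 genes, chosen by name with earlier results of these data known, out of the 21905 genes listed in both libraries. The set holds 11 glycosidases, 5 sulfatases, 8 cysteine cathepsins, 3 other peptidases, 6 genes of lipid handling, 6 membrane proteins, 2 acid phosphatases and 2 regulators. It takes in Glb1, the gene of the β-galactosidase whose activity is stained to find senescent cells, and Gusb, β-glucuronidase. All 43 genes were found in both libraries. Each was described in 7 classes of cells, grouped by marker genes.

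The study profiled bone resident cells of 12-week-old female mice 1 cell at a time with 3′ RNA libraries made in droplets, from femurs and tibias digested with collagenase and depleted of CD45+, CD71+, Ter119+ and CD31+ cells. The Veh library came from mice given vehicle, and the Doxo library from mice given 10 mg/kg of doxorubicin (Doxo), a DNA-damaging anthracycline, 96 h earlier. The strain and the number of mice in a library are not given in the labels. With 1 library per condition there were no replicates, no test between conditions was made, and each 95% interval below covers counting error only.

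The lysosome is an acidic, membrane-bound compartment in which proteins, glycans and lipids are broken down. Its soluble enzymes are carried there from the Golgi by mannose 6-phosphate receptors and other sorting receptors, its membrane is lined by heavily glycosylated proteins such as LAMP1, and many of its genes share a short promoter motif, the CLEAR element, that the transcription factor TFEB binds. In senescent cells the lysosomal compartment is known to enlarge, and the staining of β-galactosidase at a mildly acidic pH depends on GLB1. In bone, cathepsin K and the tartrate-resistant acid phosphatase ACP5 are best known from osteoclasts, the cells that resorb bone.

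The Veh library held 24861189 unique molecular identifiers (UMIs, 1 for each RNA molecule counted) with a median of 8694 per cell, and the Doxo library held 20793502 with a median of 7348, in 2488 cells each. Only 4 cell barcodes occurred in both. The classes were named from markers as CXCL12-abundant reticular (CAR)-like cells, marrow stromal cells that support blood stem cells (363 in Veh and 420 in Doxo), bone and cartilage fibroblast-like cells (1109 and 1360), arteriolar and endosteal fibroblast-like cells (410 and 248), osteoblast-like cells (207 and 125), chondrocyte-like cells (252 and 211) and endothelial-like cells (103 and 69). The endothelial-like cells had 8 of 8 endothelial markers even though CD31+ cells had been depleted. A small cluster of 44 and 55 cells, led by Clic5, Tmem196, Gpr1 and Rab37, matched no class and was left unnamed. Bone and cartilage fibroblast markers summed to 89791 CPM there in Veh and 90237 in Doxo (counts per 1000000 UMIs), above the 59733 and 59801 CPM of the class named for them, but 1 of the 8, the lubricin gene Prg4, met the naming rule, at 88493 CPM over both libraries against 17172 CPM in the other cells. RNA of blood cells differed between the libraries: in CAR-like cells 8 neutrophil markers summed to 1616 of each 1000000 UMIs in Veh and 106 in Doxo, and 5 erythroid markers to 505 and 3.66. In bone and cartilage fibroblast-like cells these sums were 1305 and 116 CPM for neutrophil and 354 and 2.40 CPM for erythroid markers. In arteriolar and endosteal fibroblast-like cells they were 72.0 and 76.7 CPM, and 175 and 2.93 CPM. Chondrocyte-like cells had 48.3 and 48.7 CPM, and 685 and 2.83 CPM. Of 8 macrophage markers, 5 were found in CAR-like cells of Veh and 6 in those of Doxo, summing to 122 and 70.2 CPM. Lyz2, which neutrophils also express, was at 62.9 and 9.77 CPM, Fcer1g at 39.9 and 42.4 CPM and Csf1r at 9.68 and 10.7 CPM, while C1qa and C1qb were at 0 in both, and Ctss, the cathepsin typical of macrophages, had at most 6 UMIs in any class and library.

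The level of a gene is its UMIs summed over the cells of a class and scaled to 1000000 UMIs of that class (CPM). The difference between Doxo and Veh is the log2 of the quotient of their levels, Doxo over Veh, called the log2 ratio, to whose sums 0.5 UMI was added first. A gene was compared in a class when it had at least 20 UMIs there over both libraries, and a log2 ratio of at least 0.5 in either direction was taken as a marked difference. The 7 classes come from the same pair of libraries, so they are not independent repeats of the treatment.

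A promoter window, from 250 bases before to 50 after the start site annotated by RefSeq on GRCm38.p6, was at hand for 38 of the 43 genes. The E-box core CACGTG, which is its own reverse complement, lay in the window of 12 of them (31.6%), against 8.09% of 27025 genes. The longer CLEAR form TCACGTGA, which contains that core, lay in 4 (10.5%), namely Gla, Ctsa, Ctsd and Mcoln1, against 1.12% of all genes, and its extension by 1 base at either end to 10 bases in none, against 0.37%. The stretches below are shown because they hold these letters next to Glb1, next to Gla with a pair of CLEAR forms, and next to Lamp1, whose window holds 4 E-boxes. Capitals mark every copy of the motif in a stretch, and each stretch is given 5′ to 3′ on the strand of its gene. Each motif position is that of the first base of the core CACGTG, also where the longer CLEAR form is in capitals.
Glb1 (chr9:114401008-114401057, plus strand, motif from -48): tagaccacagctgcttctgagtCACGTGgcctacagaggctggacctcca
Gla (chrX:134601172-134601221, minus strand, motif from -194): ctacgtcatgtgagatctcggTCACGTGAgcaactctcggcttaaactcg
Gla (chrX:134601205-134601254, minus strand, motif from -227): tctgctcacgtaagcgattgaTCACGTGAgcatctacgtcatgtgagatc
Lamp1 (chr8:13159094-13159143, plus strand, motifs from -61, -45 and -28): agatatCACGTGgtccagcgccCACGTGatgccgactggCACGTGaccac
A match of letters is a description and does not show binding. Of the 12 genes with an E-box, 5 were higher in Doxo in CAR-like cells (54.7% of all genes compared there were), with a median log2 ratio of -0.05, and of the 25 compared whose window lacked it, 17 were higher, with a median of 0.17. In bone and cartilage fibroblast-like cells the medians were -0.18 and -0.11, and in chondrocyte-like cells -0.07 and -0.14. They were -0.01 and -0.04 in arteriolar and endosteal fibroblast-like cells and -0.26 and -0.13 in the unnamed cluster. Endothelial-like cells had medians of -0.04 and 0.03, and osteoblast-like cells, on 5 and 14 genes, 0.07 and 0.32.

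Before any comparison of treatments, the genes differed between classes of cells. The unnamed cluster had the highest CPM of the 7 classes for 15 of the 43 genes in both libraries, and for 8 of these the interval of the highest class lay above that of the second class in both libraries. These 8 were Hexa and Naglu, which trim glycan ends of gangliosides and heparan sulfate, Fuca1, which removes fucose, the cathepsins Ctsb, Ctsh and Ctsd, the cholesterol exporter Npc1 and the membrane protein Lamp1. Hexa stood at 434 CPM there in Veh, against 189 CPM in chondrocyte-like cells, the second class, and 39.5 CPM in osteoblast-like cells. Ctsd stood at 686 CPM there in Veh and 555 CPM in Doxo, and the second class was at 330 CPM in both. Ctsf was the only other gene with such a separation, in chondrocyte-like cells, at 159 CPM in Veh and 135 CPM in Doxo. In all, 26 of the 43 genes had the same highest class in both libraries. Osteoblast-like cells were lowest for 29 genes in Veh and 27 in Doxo. They also had the fewest UMIs per cell, with medians of 3090 and 2930.

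**Figure D1:**
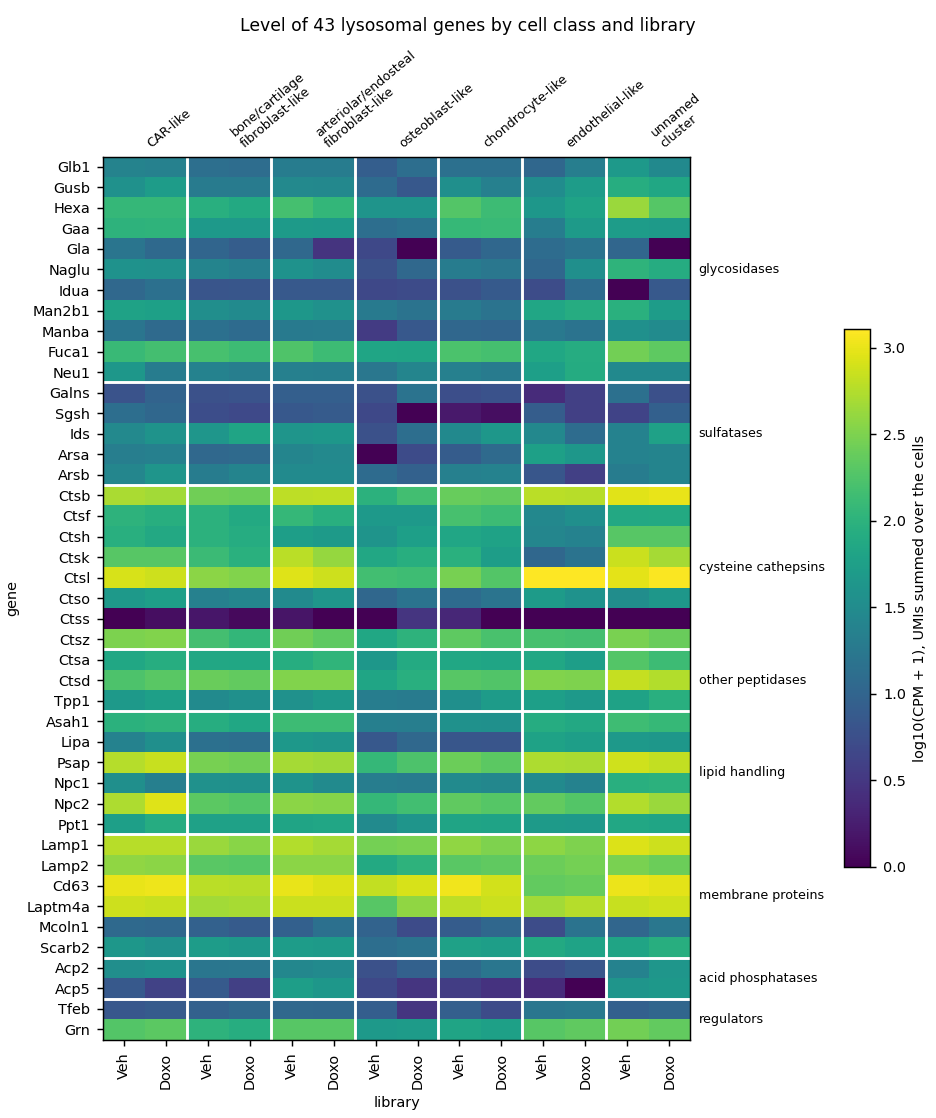
Level of each of the 43 genes (rows, by role) in 7 classes of cells, with Veh and Doxo side by side, as log10 of CPM plus 1 from UMIs summed over the cells of a class. Ctsl, Ctsb, Cd63, Laptm4a and Lamp1 form bright rows in most classes, the osteoblast-like columns are dark, Ctss is near 0 throughout, and Ctsk is bright in arteriolar and endosteal fibroblast-like cells and in the unnamed cluster.

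Cathepsins and membrane proteins gave most of the lysosomal RNA. The tetraspanin Cd63 was first among the 43 genes in CAR-like cells, with 13.5% of the UMIs of the set in both libraries. In endothelial-like cells Ctsl, a broad cysteine protease, was first with 22.5% in Veh and 22.1% in Doxo, and its level there was 1273 and 1266 CPM. Ctsk reached 605 CPM in arteriolar and endosteal fibroblast-like cells of Veh and 712 CPM in the unnamed cluster. Of the 7 osteoclast markers listed, Mmp9, Ocstamp, Dcstamp, Oscar and Tnfrsf11a were at 0 in both of these classes and both libraries. The other 2, Itgb3, an integrin subunit of osteoclasts and platelets, and Atp6v0d2, a proton pump subunit abundant in osteoclasts, were found in both. In arteriolar and endosteal fibroblast-like cells Itgb3 was at 61.3 CPM in Veh and 45.9 CPM in Doxo and Atp6v0d2 at 19.0 and 17.6 CPM, and the list summed to 80.3 and 63.5 CPM, against 3.69 to 16.5 CPM in Veh in the other named classes. In the unnamed cluster the sums were 33.9 and 32.0 CPM. In arteriolar and endosteal fibroblast-like cells 4 megakaryocyte markers summed to 520 CPM in Veh and 211 CPM in Doxo. The part of osteoclasts or megakaryocytes in the level of Ctsk was not tested.

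Summed over the set, lysosomal RNA made up 0.735% of the UMIs of CAR-like cells in Veh and 0.785% in Doxo, with exact binomial intervals of 0.724 to 0.746% and 0.776 to 0.795%. The share was also higher in Doxo in osteoblast-like cells, at 0.243% in Veh and 0.311% in Doxo. It was lower in Doxo in bone and cartilage fibroblast-like cells (0.460 and 0.424%), arteriolar and endosteal fibroblast-like cells (0.783 and 0.709%), chondrocyte-like cells (0.511 and 0.448%) and the unnamed cluster (1.04 and 0.949%). In endothelial-like cells the shares of 0.564% and 0.573% had intervals that overlapped. The log2 ratios of these sums ran from -0.19 in chondrocyte-like cells (interval -0.22 to -0.16) to 0.36 in osteoblast-like cells (0.26 to 0.46). The medians of all genes compared there were 0.10 and -0.04. In bone and cartilage fibroblast-like cells the sum was at -0.12 and the median of all genes at -0.09. These were -0.14 and -0.02 in arteriolar and endosteal fibroblast-like cells, and -0.13 and 0.03 in the unnamed cluster. They were 0.09 and 0.05 in CAR-like cells, and 0.02 and 0.04 in endothelial-like cells. In CAR-like cells the ratio of 0.09 became 0.03 (-0.00 to 0.06) when Npc2 alone was left out of the sum, a choice made after its value was seen.

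**Figure D2:**
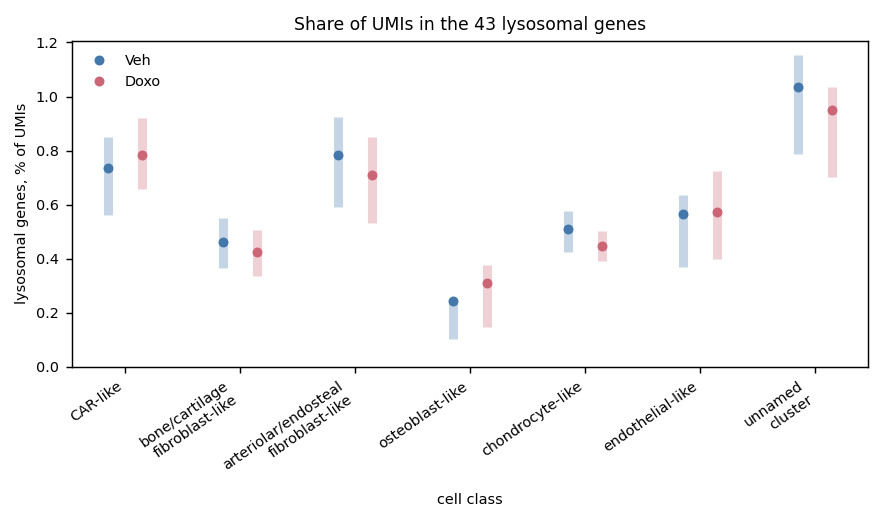
Share of UMIs that came from the 43 lysosomal genes (vertical axis, %) in each class of cells, with Veh and Doxo side by side. Points are shares of UMIs pooled over the cells, and bars run from the first to the third quartile of the cells. The bars of Veh and Doxo overlap in every class, and the unnamed cluster is highest and the osteoblast-like cells are lowest in both libraries.

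In CAR-like cells, about the same share of the lysosomal set was higher in Doxo as of all genes. Of 42 genes compared, 24 were higher in Doxo, where 54.7% of 11376 genes were. A log2 ratio of 0.5 or more was reached by 5 genes (16.0% of all genes were as high) and of -0.5 or less by 5 genes (12.6% of all genes were as low). The median log2 ratio was 0.06 for the set and 0.05 for all genes. Npc2, a soluble carrier of cholesterol, stood out as the abundant gene with the clearest difference, and Glb1 differed by less than its counting error.

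Glb1 (chr9:114401076-114474898) had 58 UMIs in Veh and 73 in Doxo, or 23.4 CPM (exact Poisson interval 17.8 to 30.2) and 22.3 CPM (17.5 to 28.0). Its log2 ratio was -0.07, and the interval from -0.59 to 0.45 leaves room for a difference of either sign up to about that size. Glb1 shares exon sequence on the same strand with Tmppe, so that its reads could be split between them. The same holds for Ctsl with Gm49230 and for Ctsd with Gm49369. Gusb (chr5:129989011-130003049), which removes glucuronic acid from glycosaminoglycans, was at 36.7 CPM in Veh and 50.7 CPM in Doxo, a log2 ratio of 0.46 (0.09 to 0.85). The 11 glycosidases together had 5 genes higher and 6 lower (54.7% of all genes were higher). The sialidase Neu1 (chr17:34931253-34935953) had the lowest ratio of the set, with 42.7 CPM in Veh and 19.2 CPM in Doxo and a log2 ratio of -1.15 (-1.63 to -0.69). Gla, the α-galactosidase A, and Manba, a β-mannosidase, both had a log2 ratio of -0.52 with intervals that reached above 0. Hexa and Gaa, the acid α-glucosidase that digests glycogen, differed little, with log2 ratios of 0.00 and 0.03.

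The sulfatases, which remove sulfate from glycosaminoglycans and sulfolipids, were higher in Doxo for 4 of 5 genes (54.7% of all genes were). Their median log2 ratio was 0.45, against 0.05 for all genes. Arsb, which acts on dermatan sulfate, went from 25.8 CPM in Veh to 40.3 CPM in Doxo, a log2 ratio of 0.64 (0.20 to 1.10). Ids, the iduronate sulfatase, was at 28.2 and 38.8 CPM, a log2 ratio of 0.45 (0.03 to 0.90). Galns had 13 UMIs in Veh and 29 in Doxo, and Sgsh 30 and 32, so neither could be placed on a side of 0.

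Among the cysteine cathepsins, 5 of the 7 compared were lower in Doxo, where 5151 of 11376 genes were. Their median log2 ratio was -0.13, against 0.05 for all genes. None was past 0.5 in either direction (16.0% of all genes were higher by as much and 12.6% lower). Ctsl was at 821 CPM in Veh and 733 CPM in Doxo, a log2 ratio of -0.16 (-0.25 to -0.08). Ctsb differed by -0.13 (-0.24 to -0.03). Ctsk was at 199 CPM in Veh and 198 CPM in Doxo. The 3 peptidases outside this family, Ctsa, which also protects NEU1, the aspartic protease Ctsd and the tripeptidyl peptidase Tpp1, were higher in Doxo (54.7% of all genes were) with log2 ratios of 0.29, 0.24 and 0.26.

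The lipid handling genes held 3 of the 5 genes that were higher by 0.5 or more, of which Npc2 alone stayed past 0.5 without the Il6-high subcluster described below. Npc2 (chr12:84754562-84773152) went from 1311 UMIs in 363 cells of Veh to 2935 UMIs in 420 cells of Doxo, or from 529 CPM (500 to 558) to 896 CPM (864 to 929). These intervals do not overlap, and the log2 ratio was 0.76 (0.67 to 0.86). With each cell thinned to 2000 UMIs, a UMI of Npc2 was found in 60.7% of Veh and 77.8% of Doxo CAR-like cells, while the share in bone and cartilage fibroblast-like cells was 32.5 and 27.2%. Without thinning, the CAR-like shares were 84.8 and 94.5%, at median depths of 6231 and 7288 UMIs. None of the 7 classes is known to lack Npc2. Lipa, the acid lipase that frees cholesterol from its esters, had a log2 ratio of 0.58 (0.11 to 1.07), and Ppt1, a thioesterase that removes palmitate from proteins, 0.57 (0.27 to 0.88). Psap, the precursor of the saposins, was at 572 and 697 CPM, a log2 ratio of 0.29 (0.19 to 0.38). Npc1, the membrane partner of NPC2 in cholesterol export, was lower in Doxo, with 33.9 CPM in Veh and 20.8 CPM in Doxo and a log2 ratio of -0.70 (-1.19 to -0.23).

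The 6 membrane proteins differed little in CAR-like cells. Lamp1 was at 589 and 592 CPM, a log2 ratio of 0.01 (-0.09 to 0.11), Lamp2 differed by -0.09 (-0.22 to 0.03), Cd63 by 0.09 (0.02 to 0.17) and Laptm4a by -0.09. The calcium channel Mcoln1 and Scarb2, an integral protein of the lysosomal membrane, were both lower by less than 0.5. Of the acid phosphatases, Acp2 differed by 0.18, and Acp5 had only 16 UMIs in Veh and 10 in Doxo. The regulators Tfeb, with 15 and 22 UMIs, and Grn, which encodes progranulin, had log2 ratios of 0.14 and 0.17.

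**Figure D3:**
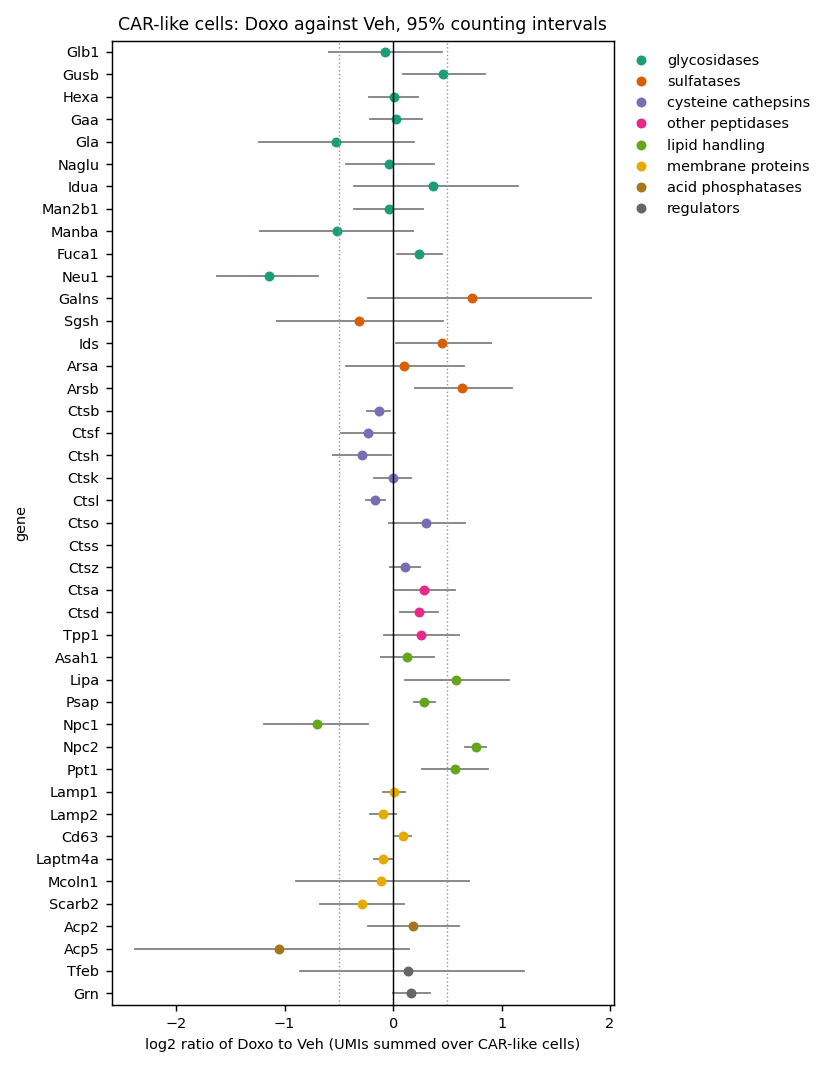
Log2 ratio of Doxo to Veh (horizontal axis) of each of the 42 genes compared in CAR-like cells, coloured by role, with 95% intervals of counting error as lines. Dotted lines mark -0.5 and 0.5. Npc2 lies to the right at 0.76 with a short interval, Neu1 to the left at -1.15, Glb1 at -0.07 and Lamp1 at 0.01.

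CAR-like cells fell into 3 subclusters, and the second, with the highest Il6, had 84 cells in Veh and 3 in Doxo. Within the first subcluster, of 269 and 400 cells, Npc2 stood at 526 CPM in Veh and 928.5 CPM in Doxo, and the log2 ratio was 0.82 (0.71 to 0.93). In the third, of 10 and 17 cells, it was 0.93 (0.49 to 1.41). Neu1 was at 55.7 CPM in Veh and 20.2 CPM in Doxo within the first, and at 14.8 CPM in the second subcluster of Veh. Without the second subcluster, 20 of the 42 genes were higher in Doxo, the median log2 ratio of the set was -0.04, that of Gusb was 0.35 and that of Glb1 was -0.21. The genes higher by 0.5 or more then numbered 2 in place of 5, with Lipa at 0.49 and Ppt1 at 0.47, and those lower by as much 4 in place of 5. With all CAR-like cells, 54.7% of all genes were higher, 16.0% by 0.5 or more, and 12.6% were lower by as much. These shares were not counted again without the second subcluster, so whether all genes shifted alike was not tested. Markers of osteoblasts, which are themselves low in lysosomal RNA here, summed to 8022 CPM in CAR-like cells of Veh and 3175 CPM in those of Doxo, and their part in the differences above was not tested.

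In bone and cartilage fibroblast-like cells, the class with most UMIs (11259234 in Veh and 10828652 in Doxo), the genes were slightly lower in Doxo. Of 42 compared, 13 were higher, where 38.3% of 13117 genes were, and the median log2 ratio was -0.11 for the set and -0.09 for all genes. Only Ids was higher by 0.5 or more (5.54% of all genes were), and only Acp5 lower by as much (12.2% of all genes were). Ids went from 470 UMIs and 41.7 CPM to 696 UMIs and 64.3 CPM, a log2 ratio of 0.62 (0.45 to 0.79). Acp5 went from 74 to 31 UMIs, a log2 ratio of -1.19 (-1.85 to -0.58), while the osteoclast markers summed to 7.19 CPM in Veh and 4.53 CPM in Doxo, with Tnfrsf11a at 0. Cathepsins were lower for 6 of 7 genes. Ctsk was at 129 and 91.8 CPM, a log2 ratio of -0.49 (-0.61 to -0.38), Ctsz at -0.39 (-0.49 to -0.28) and Ctsf at -0.36 (-0.50 to -0.23). Lamp1 was lower by -0.27 (-0.33 to -0.21) and Laptm4a higher by 0.09 (0.03 to 0.14). Npc2, in contrast to CAR-like cells, had a log2 ratio of -0.16 (-0.25 to -0.07). Of the higher genes, Arsb and Tpp1 had ratios of 0.33 and 0.28 with intervals above 0, and those of Tfeb (0.28) and Ctso (0.20) reached below it. Glb1 stood at 12.8 and 11.9 CPM and Gusb at 18.7 and 18.8 CPM.

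Arteriolar and endosteal fibroblast-like cells had 17 of 42 genes higher in Doxo, where 47.9% of 11165 genes were, with a median log2 ratio of -0.03 for the set and -0.02 for all genes. Of the 42, 1 was higher by 0.5 or more (9.65% of all genes were) and 2 were lower by as much (12.8% of all genes were). Ctsk was lower, with 605 CPM (581 to 629) in Veh and 410 CPM (383 to 439) in Doxo, a log2 ratio of -0.56 (-0.67 to -0.45). The intervals of its levels do not overlap. Gla, with 42 UMIs in Veh and 4 in Doxo, was the lowest point of the set in any class at -2.23 (-4.33 to -0.92), and is named here after its value was seen because it had under 50 UMIs. Hexa (-0.44), Fuca1 (-0.39) and Ctsf (-0.37) were lower with intervals below 0. The 5 sulfatases had ratios from 0.00 to 0.19, with a median of 0.11, and the 3 other peptidases had ratios from 0.00 to 0.33, the highest being Ctsa at 0.33 (0.07 to 0.57). Mcoln1 had the highest ratio at 0.72 (-0.07 to 1.50) on 60 UMIs, which was -0.51 with each cell thinned to 2000 UMIs, and Ctso followed at 0.50 (0.08 to 0.91).

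Osteoblast-like cells were the class in which the median of the set lay farthest above that of all genes, on few UMIs. Only 23 of the 43 genes had enough UMIs, of which 15 were higher in Doxo, where 46.5% of 5617 genes were. None was lower by 0.5 or more (23.2% of all genes were) and 6 were higher by as much (16.0% of all genes were), and the median log2 ratio was 0.32 against -0.04 for all genes. Laptm4a, a protein of the lysosomal membrane, went from 160 UMIs and 198 CPM to 190 UMIs and 390.3 CPM, a log2 ratio of 0.98 (0.67 to 1.29). Ctsa had a ratio of 0.85 (0.15 to 1.56), Psap 0.56 (0.11 to 0.99) and Ctsb 0.54 (0.06 to 1.02). Under the alternatives described below, other than the mean of the deposited log2 values, Ctsa ranged from 0.02 to 0.97. Cd63, the most abundant gene of the set there, was at 652 and 822 CPM, a log2 ratio of 0.33 (0.14 to 0.52). Man2b1, with 14 and 7 UMIs, had the lowest ratio at -0.22, and among genes with at least 50 UMIs the lowest, Ctsl, Ctsf, Fuca1 and Hexa, lay between -0.07 and -0.00. The result depended on how the cells were named: with 311 and 242 cells taken instead by the markers found in each cell, the median was 0.01 and the ratio of the summed set -0.02, and Ctsb was at -0.06. In the same cells, CAR markers summed to 717 CPM in Veh and 304 CPM in Doxo and bone and cartilage fibroblast markers to 888 and 1364 CPM, and their part in the difference was not tested. Glb1 and Gusb had 12 UMIs each there, too few for a comparison.

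In chondrocyte-like cells, which had the most UMIs per cell (medians of 19127.5 in Veh and 14606 in Doxo), the median of the set lay below that of all genes. Of 40 genes compared, 13 were higher, where 58.6% of 11024 genes were, and the median log2 ratio was -0.10 against 0.10 for all genes. Of the 40, 5 were higher by 0.5 or more (20.9% of all genes were) and 4 lower by as much (11.8% of all genes were). Cathepsins were lower for 6 of 7. Ctsk was at 91.4 CPM in Veh and 52.2 CPM in Doxo, a log2 ratio of -0.81 (-1.07 to -0.55), and Ctsl at 289.8 and 189 CPM, a ratio of -0.61 (-0.75 to -0.48). Cd63 went from 1095 to 784 CPM, a ratio of -0.48 (-0.55 to -0.41), the gene that took most from the sum. Gusb was lower, with 169 and 68 UMIs and 34.6 and 21.4 CPM, a log2 ratio of -0.69 (-1.12 to -0.28). With each cell thinned to 2000 UMIs, Gusb was at -0.15. Hexa was lower by -0.49 (-0.66 to -0.32). Tfeb had 38 and 13 UMIs, a ratio of -0.89 (-1.96 to 0.01). On the higher side, Ids was at 28.5 and 43.1 CPM, a log2 ratio of 0.60 (0.25 to 0.95), and Tpp1 at 34.0 and 49.7 CPM, a ratio of 0.55 (0.22 to 0.87). Arsa (0.62), Acp2 (0.59) and Gla (0.53) had intervals that reached 0 or below, and with each cell thinned to 2000 UMIs Acp2 was at -0.39 and Gla at -0.61. Laptm4a was higher by 0.23 (0.15 to 0.31), unlike Lamp1 at -0.27 (-0.38 to -0.16). Glb1 stood at 13.1 and 12.9 CPM.

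Endothelial-like cells gave few UMIs (700939 in Veh and 350040 in Doxo), and the intervals of most genes named here held 0. Of 29 genes compared, 11 were higher in Doxo, where 52.9% of 6635 genes were, with a median log2 ratio of -0.05 against 0.04 for all genes. Of the 29, 4 were higher by 0.5 or more (17.9% of all genes were) and 1 lower by as much (14.0% of all genes were). The 4 were glycosidases, of which all 6 compared were higher: Hexa at 0.56 (-0.31 to 1.40), Neu1 at 0.53 (-0.23 to 1.26), Gusb at 0.72 (-0.27 to 1.68) and Gaa at 1.27 (0.17 to 2.41) on 31 UMIs. With 20 components in place of 35, Hexa was at -0.42. The 6 lipid handling genes had ratios below 0, with a median of -0.15. Laptm4a was at 471 and 566 CPM, a ratio of 0.27 (0.00 to 0.52). The lowest genes with at least 50 UMIs were Arsa, Ctsa, Lamp1, Tpp1 and Npc2, between -0.38 and -0.25, all with intervals that held 0.

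The unnamed cluster, richest in lysosomal RNA, had 14 of 36 genes higher in Doxo, where 51.7% of 6565 genes were, with a median of -0.12 against 0.03 for all genes. Of the 36, 3 were higher by 0.5 or more (15.7% of all genes were) and 4 lower by as much (13.3% of all genes were). The 9 glycosidases compared had ratios below 0. Hexa, from 269 UMIs and 434 CPM (384 to 490) to 121 UMIs and 194 CPM (161 to 231), had a log2 ratio of -1.16 (-1.49 to -0.85), and Man2b1, an α-mannosidase, one of -0.86 (-1.54 to -0.22). Ctsk was again lower, at 712 and 482 CPM and -0.56 (-0.78 to -0.35), with Ctsa at -0.46 (-0.89 to -0.05) and Npc2 at -0.36 (-0.60 to -0.13). Ctsl went the other way, from 959 to 1236 CPM, a ratio of 0.36 (0.21 to 0.52). Under the alternatives described below, other than the mean of the deposited log2 values, Ctsl ranged from -0.07 to 0.38. Ids had 14 and 37 UMIs, a ratio of 1.36 (0.47 to 2.39). Tpp1 (0.60), Scarb2 (0.44) and Acp5 (0.15) had intervals that reached below 0, and thinned to 2000 UMIs per cell Tpp1 was at -0.09. Glb1 was at its highest here, at 46.8 CPM in Veh (31.4 to 67.3) and 28.8 CPM in Doxo (17.1 to 45.5), a ratio of -0.69 (-1.64 to 0.20), and Gusb at 84.0 and 68.8 CPM.

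**Figure D4:**
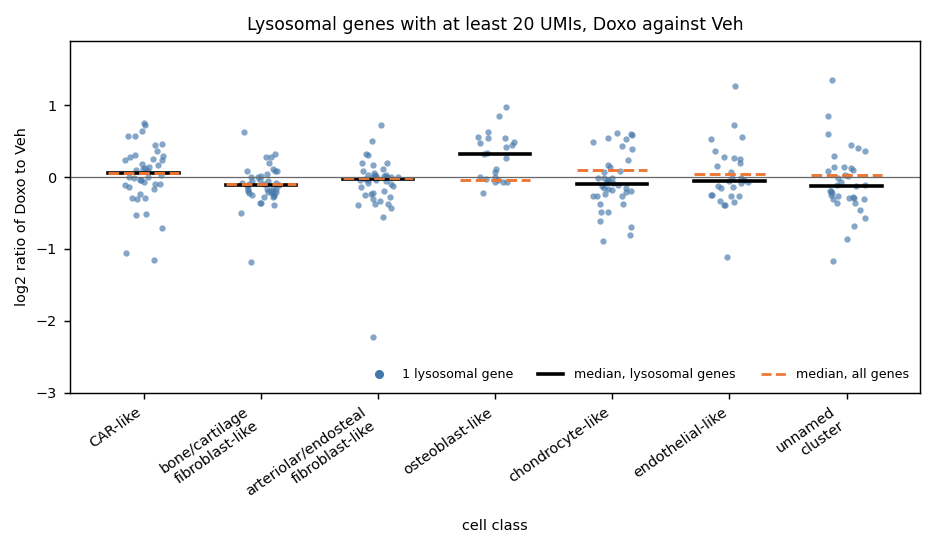
Log2 ratio of Doxo to Veh (vertical axis) of the lysosomal genes with at least 20 UMIs in each class of cells, 1 point per gene. Black lines are medians of the set and dashed orange lines medians of all genes with as many UMIs: the pair nearly coincides in CAR-like and both kinds of fibroblast-like cells, and is farthest apart in osteoblast-like cells (0.32 and -0.04).

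Some genes had the same direction in several classes, and others did not. Glb1 showed no difference beyond counting error in any class: its log2 ratio was between -0.10 and -0.00 in the 4 classes with more than 100 UMIs, and each of its 7 intervals held 0. In Veh its order from the highest was the unnamed cluster, CAR-like cells (23.4 CPM), arteriolar and endosteal fibroblast-like cells (19.2 CPM), chondrocyte-like cells (13.1 CPM) and bone and cartilage fibroblast-like cells (12.8 CPM), with endothelial-like (9.99 CPM) and osteoblast-like cells (7.41 CPM) last, and apart from the unnamed cluster the interval of each class overlapped that of the next. Ctsk was lower in Doxo in both kinds of fibroblast-like cells, chondrocyte-like cells and the unnamed cluster, with intervals below 0 in these 4, and differed by -0.01 in CAR-like cells. Ids was higher in bone and cartilage fibroblast-like, chondrocyte-like and CAR-like cells and the unnamed cluster, with intervals above 0 in these 4. Hexa was lower, with intervals below 0, in both kinds of fibroblast-like cells, chondrocyte-like cells and the unnamed cluster. Npc2 was higher with an interval above 0 in CAR-like cells and had ratios between -0.36 and -0.06 in the 5 classes other than osteoblast-like cells (0.32, -0.15 to 0.77).

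**Figure D5:**
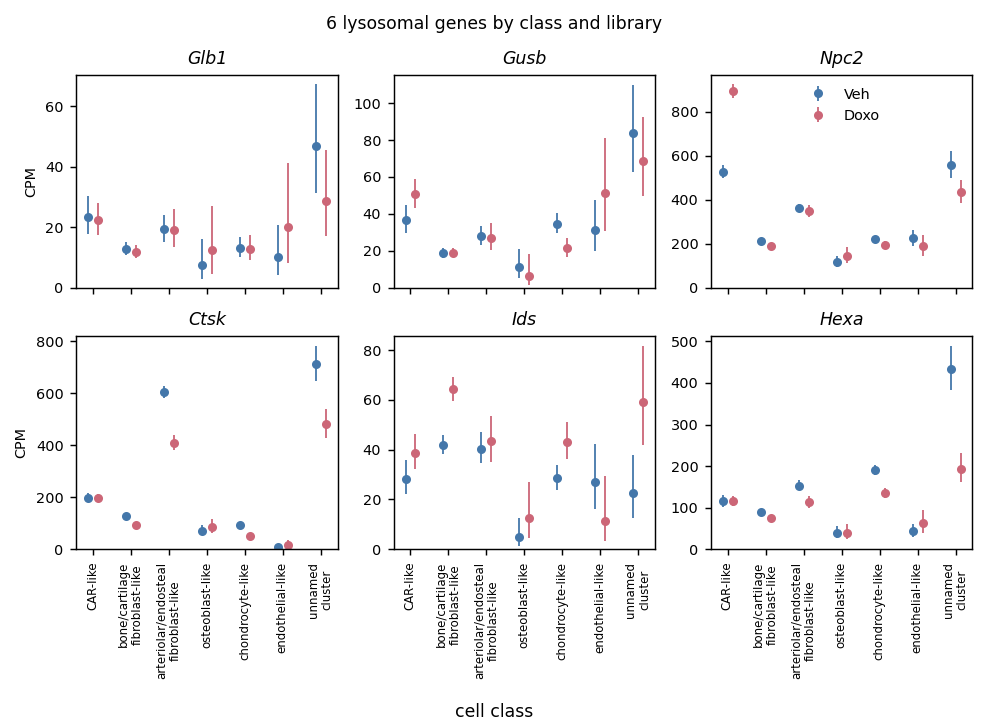
CPM of 6 lysosomal genes (vertical axes, each from 0) in 7 classes of cells in Veh and Doxo, with exact 95% Poisson intervals as bars. Npc2 is far apart between the libraries in CAR-like cells (529 and 896 CPM), Ctsk in arteriolar and endosteal fibroblast-like cells (605 and 410 CPM), Hexa in the unnamed cluster (434 and 194 CPM) and Ids in bone and cartilage fibroblast-like cells (41.7 and 64.3 CPM), while the bars of Glb1 overlap in every class.

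A further 85 genes of the lysosome and autophagy, listed for their function, were set beside the 43 in CAR-like cells. Of the 83 compared, 51 were higher in Doxo, 9 of them by 0.5 or more and 6 lower by as much, with a median log2 ratio of 0.12. Over all genes compared there, 54.7% were higher, 16.0% by 0.5 or more, 12.6% were lower by as much, and the median was 0.05. The sorting receptors and enzymes that send hydrolases to the lysosome were higher for 5 of 6 genes, with a median of 0.43. Sort1, which encodes sortilin, a receptor that carries prosaposin among other cargo, had the highest ratio, with 54 UMIs and 21.8 CPM in Veh and 250 UMIs and 76.3 CPM in Doxo, 1.80 on the log2 scale (1.38 to 2.26). Of the other hydrolases and cofactors, 13 of 18 were higher, and of other membrane proteins 9 of 11, with a median of 0.35. The proton pump, which acidifies the lysosome, had 9 of 16 subunits higher, none past 0.5 in either direction, and a median of 0.05. Autophagy genes had 9 of 17 higher and a median of 0.07. The lowest ratios were those of the nuclease Dnase2a, with 30 and 21 UMIs and a ratio of -0.91 (-1.79 to -0.06), and Ctsc, the dipeptidyl peptidase that activates granule proteases of blood cells, at -0.61 (-1.09 to -0.13). In the other classes the median of these genes ran from -0.10 in bone and cartilage fibroblast-like cells to 0.15 in osteoblast-like cells.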

How the data were processed

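The authors aligned the reads to GRCm38 (mm10) with Cell Ranger, and the submitters' processing notes also name Partek; versions and the annotation release are not given in the sources used here. The deposited values are log2 values per gene and cell. As the values show, UMIs had been scaled to 1000000 in every cell and logged, and the result scaled and logged once more. Both rounds were inverted, and 99.9% of nonzero values up to 50 UMIs came out whole within 0.05 in each library. In 60 simulated cells the inversion gave back 100.0% of the UMIs. None of the 43 genes was among the 27 symbols that were not whole.

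Clustering used all 4976 cells of both libraries with Seurat 5.3.0 under R 4.3.3, without integration, with 35 components of 2000 variable genes and a resolution of 0.1. The lysosomal genes were left out of the clustering, so their levels across classes did not define the classes. Endothelial-like cells were set aside, the rest clustered again, and CAR-like cells were split at 0.15. A class was named when at least 3 of its markers were found in at least 10% of a cluster's cells at 2 times the level of the other cells. Doublets were kept, and no caller was run.

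UMIs were summed per class and library, which leaves no test with 1 library per condition. Intervals are exact Poisson for levels, exact Clopper-Pearson for shares and exact conditional binomial for ratios, at 95%, and were checked on simulated data. Gene positions are those of GENCODE M21 on GRCm38. The members and lists were chosen with earlier results of these data known. Genes named are Glb1 and Gusb, in each class the 5 highest and 5 lowest log2 ratios among members with at least 50 UMIs, and of the 85 further genes the 2 highest and 2 lowest in CAR-like cells, of which 1 is not reported here. Any other gene was picked after its value was known. Alternatives were other cell filters, cells thinned to 2000 UMIs, equal weight per cell, other clusterings, a higher minimum, the mean of the deposited log2 values and a centred ratio. The software was Python 3.11.15 with scipy 1.17.1, numpy 2.4.6, matplotlib 3.10.9 and pandas 2.3.3.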

Additional observations from a re-analysis of the deposited data

Results flagged for a closer look

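Several genes differed between Veh and Doxo in opposite directions in a pair of classes, each with an interval of counting error on its own side of 0 and with at least 1 of the ratios past 0.5. With 1 library per condition, none of these differences was tested. Npc2 had a log2 ratio of 0.76 in CAR-like cells and -0.36 in the unnamed cluster, 1.13 apart. Gusb was at 0.46 in CAR-like cells and -0.69 in chondrocyte-like cells, 1.15 apart. With each cell thinned to 2000 UMIs these ratios were 0.49 and -0.15. Within the first CAR-like subcluster the ratio of Gusb was 0.31, with an interval of -0.10 to 0.75 that held 0. Ctsa stood at 0.85 in osteoblast-like cells and -0.46 in the unnamed cluster, 1.31 apart. Both classes gave few UMIs. Under the alternatives other than the mean of the deposited log2 values, Ctsa ranged from 0.02 to 0.97 in osteoblast-like cells. In the unnamed cluster it ranged from -0.73 to -0.46. Ctsl stood at 0.36 in the unnamed cluster and -0.61 in chondrocyte-like cells, 0.98 apart. Under the same alternatives it ranged from -0.07 to 0.38 in the unnamed cluster. In chondrocyte-like cells it ranged from -0.71 to -0.16, so the directions were not opposite under every alternative. The other 3 pairs also set osteoblast-like cells, at few UMIs, against a class with more: Laptm4a (0.98 and -0.09 in CAR-like cells, 1.07 apart), Psap (0.56 and -0.27 in chondrocyte-like cells, 0.82 apart) and Ctsb (0.54 and -0.13 in CAR-like cells, 0.68 apart). Under the same alternatives the osteoblast-like ratio of Laptm4a ranged from 0.27 to 1.25. That of Psap ranged from 0.17 to 0.88 and that of Ctsb from -0.06 to 1.25.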

How the results depend on the processing

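No paired analysis was possible because each condition has 1 library. Over all alternatives, the number of genes higher in Doxo ranged from 20 to 31 in CAR-like cells (24 as reported), from 4 to 18 for bone and cartilage fibroblast-like and 8 to 25 for arteriolar and endosteal fibroblast-like cells, from 11 to 21 in osteoblast-like cells, from 8 to 16 in chondrocyte-like cells, from 4 to 16 in endothelial-like cells and from 7 to 14 in the unnamed cluster. Of 78 such counts and counts of shared highest classes under an alternative, 71 were within 1.5 times the reported one. The small counts of genes past 0.5 moved more: 93 of 126 were within 1.5 times and 33 were not. Genes higher by 0.5 or more numbered 2 to 7 in CAR-like, 1 to 3 in bone and cartilage fibroblast-like, 1 to 6 in arteriolar and endosteal fibroblast-like, 3 to 9 in osteoblast-like, 2 to 6 in chondrocyte-like and 1 to 4 in endothelial-like cells and 1 to 3 in the unnamed cluster, and genes lower by as much 2 to 5, 1 to 4, 1 to 5, 0 to 2, 3 to 6, 0 to 3 and 3 to 6 in the same order. Thinning to 2000 UMIs per cell left fewer genes to compare and gave 8 of 26 genes higher in chondrocyte-like cells, 7 of 15 in endothelial-like cells and 7 of 19 in the unnamed cluster, and 17 genes with the same highest class in both libraries. The mean of the deposited log2 values, which gives weight to the share of cells with any UMI, gave 4 of 42 genes higher for bone and cartilage fibroblast-like, 8 of 42 for arteriolar and endosteal fibroblast-like and 4 of 29 for endothelial-like cells. In the same order, median UMIs per cell were 9603, 9323.5 and 6326 in Veh and 7287, 6963 and 4629 in Doxo. The part of depth in these counts was not tested. The shares of all genes higher in Doxo were not counted with thinning or by this mean. Of the log2 ratios of named genes past 0.5, 9 changed sign under 1 alternative each. With thinning, Mcoln1 was at -0.51 in arteriolar and endosteal fibroblast-like cells, Acp2 at -0.39 and Gla at -0.61 in chondrocyte-like cells, Tpp1 at -0.089 in the unnamed cluster, and Glb1 at -0.90 in osteoblast-like and -0.083 in endothelial-like cells, where it had 12 and 14 UMIs. Gusb was at 0.30 in osteoblast-like cells without the deepest 5% of cells, Hexa at -0.42 in endothelial-like cells with 20 components, and Ctsb at -0.061 in osteoblast-like cells classed by the markers found. The cause of these changes was not tested. In CAR-like cells Npc2 stayed between 0.71 and 0.88, and Glb1 lay between -0.50, with equal weight per cell, and 0.09. Centring on all genes shifts a ratio by at most 0.10, in chondrocyte-like cells. Depth limits the osteoblast-like and endothelial-like cells and the unnamed cluster most, where 20, 14 and 7 of the 43 genes had too few UMIs to be compared.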

Other observations

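Some of the further lysosomal genes differed between classes in ways that belong to no comparison above, and they are named here after their values were seen. Sort1 was higher in Doxo in CAR-like cells (21.8 and 76.3 CPM), while it stood at 60.6 and 64.1 CPM in chondrocyte-like cells and at 2.58 and 2.59 CPM in bone and cartilage fibroblast-like cells. M6pr, the cation-dependent mannose 6-phosphate receptor, was at 66.1 and 98.9 CPM in CAR-like cells, a log2 ratio of 0.58, and at 24.0 and 34.6 CPM in chondrocyte-like cells, a ratio of 0.53. Cst3, which encodes cystatin C, an inhibitor of cysteine cathepsins, was at 24754 CPM in Veh and 32929 CPM in Doxo in chondrocyte-like cells and at 3339 and 3025 CPM in CAR-like cells. In chondrocyte-like cells Ctsk and Ctsl were lower in Doxo, at the log2 ratios given above of -0.81 and -0.61. A link between these levels and that of Cst3 was not tested. Cstb, an inhibitor inside the cell, was lower in Doxo in CAR-like cells, at 238 and 162 CPM, a ratio of -0.55. Mitf, a transcription factor of the family of TFEB, was at 108 and 81.6 CPM in the unnamed cluster and at 6.05 and 4.58 CPM in CAR-like cells.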
